A study of Homo sapiens with 4 samples.

Results

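The genes described here, 10 in all, belong to the actin and myosin contractile machinery: the actin gene ACTA2, the myosin light chain gene MYL9, the calponin family genes TAGLN, CNN1, CNN2 and CNN3, the tropomyosin genes TPM1 and TPM2, the caldesmon gene CALD1, and SRF, a transcription factor gene. They were chosen by symbol, and all 10 were found among the 39261 genes of the tables. Earlier results of these data were known at that choice, so counts of members beside shares of all genes are descriptions only. Bulk RNA was sequenced from 4 cultures of 2 human breast cancer lines, each culture giving 1 library. MDA-MB-231 cells, triple-negative and mesenchymal in kind, carried lentiviral constructs for TMEM126A knockdown or an sh-NC control vector. Ca1a (MCF10-Ca1a), a malignant derivative of the mammary epithelial line MCF10A, carried lentiviral constructs for TMEM126A overexpression or the control vector pCDH. The lines were also kept in different media, L15 with fetal bovine serum for MDA-MB-231 and DMEM/F12 with horse serum, insulin, EGF, cholera toxin and hydrocortisone for Ca1a. How many clones each culture held was not given in the labels. Without replicates no test between conditions was possible, and nothing here separates an effect of TMEM126A from other differences between cultures.

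Contractile force in non-muscle cells comes from myosin II filaments pulling on actin filaments. Myosin is switched on by phosphorylation of its regulatory light chains, and tropomyosin, caldesmon and calponins lie along the actin filament and modulate its use by myosin. In smooth muscle, myofibroblasts and myoepithelial cells many of these genes are switched on together by SRF, which binds the CArG box in promoters with myocardin-related coactivators that respond to free actin.

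Promoter sequence is shown for 3 of the 4 genes in which a CArG box or a close match lay within the window searched, since this motif is the site that SRF binds. RefSeq windows on GRCh38.p14, of 250 bases before to 50 bases after an annotated start, were at hand for 8 of the 10 genes, with 15 windows in all. TAGLN and MYL9 had no window. The CArG box, which reads the same way on both strands, was found in 2 of the 15 windows, against 1.29% of all 35116 windows. A match with 1 G or C among its central bases, which excludes the exact form, was found in 2 windows, against 6.94% of all windows. Each sequence below runs 5′ to 3′ on the strand of its gene and ends at the base before the start, with matches in capitals.
SRF, chr6:43171139-43171268, plus strand: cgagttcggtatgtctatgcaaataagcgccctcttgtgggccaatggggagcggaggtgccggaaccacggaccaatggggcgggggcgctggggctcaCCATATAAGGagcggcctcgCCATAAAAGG
CNN2, chr19:1026478-1026607, plus strand: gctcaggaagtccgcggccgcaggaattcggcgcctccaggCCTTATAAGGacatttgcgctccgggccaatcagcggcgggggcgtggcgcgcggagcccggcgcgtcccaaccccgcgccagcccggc
ACTA2, downstream start, chr10:88952774-88952903, minus strand: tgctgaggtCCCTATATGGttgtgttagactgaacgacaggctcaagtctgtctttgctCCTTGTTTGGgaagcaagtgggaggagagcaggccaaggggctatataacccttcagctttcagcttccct
In SRF, whose product thus has its own motif in its promoter, exact boxes began 30 and 10 bases before 1 of 2 annotated starts. In CNN2 1 exact box began 89 bases before it. In ACTA2 2 matches with 1 deviating base began 121 and 71 bases before the start. The other close match lay 26 bases before 1 of 4 starts of CALD1, and windows of CNN1, CNN3, TPM1 and TPM2 held neither form. A match is a string of letters and shows no binding.

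Depth was 20673373 to 21405193 reads per library. TMEM126A itself had 22.9 normalized counts with knockdown, against 559 with its control vector, and 9381 with overexpression, against 265 with its control vector, which goes with the labels. Markers of the lines went with their names only in part. Of 4 mesenchymal markers, 2 (CDH2 and SPARC) were under 1 FPKM in all 4 libraries and so did not mark MDA-MB-231. EPCAM stood at 133 and 131 FPKM in the overexpression and control libraries of Ca1a and at 2.62 and 3.10 FPKM in the knockdown and control libraries of MDA-MB-231. VIM stood at 708 and 721 FPKM in the knockdown and control libraries of MDA-MB-231 and at 74.8 and 90.5 FPKM in the overexpression and control libraries of Ca1a. Of the markers of other contractile or stromal cells, 3 of 5 for smooth muscle and pericytes, 4 of 5 for fibroblasts and 2 of 3 for endothelium were under 1 FPKM in all 4 libraries, and the smooth muscle gene MYH11 was listed at 0 in each. ACTN4, an alpha-actinin gene that most cells express, was also listed at 0 in each, so a gene at 0 throughout may not have been counted.

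Levels per transcript length (FPKM, fragments scaled to transcript length and depth) differed between the lines for most of the 10 genes. The calponin gene CNN2 and the caldesmon gene CALD1 stood at like levels in all 4 libraries. MYL9 and TAGLN were expressed in MDA-MB-231 and at or near 0 in Ca1a, whereas ACTA2 and TPM2 were several times higher in Ca1a. In bulk RNA, fewer expressing cells and less RNA per cell cannot be told apart.

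MYL9 (chromosome 20, 36541484 to 36551447, plus strand, GRCh38) encodes a regulatory light chain of myosin II found in smooth muscle and other contractile cells. It stood at 80.8 FPKM in the knockdown library and 83.0 FPKM in the control library of MDA-MB-231, and at 0.0292 FPKM in the overexpression library and 0 FPKM in the control library of Ca1a. These levels rest on 2721 and 2705 reads in MDA-MB-231 and on 1 and 0 reads in Ca1a. MYL9 thus took rank 3 by FPKM of the 10 genes in MDA-MB-231, and in the counts of Ca1a it was at or under the limit of 3 reads that a count of 0 allows. The share of reads was at least 929-fold higher in the MDA-MB-231 control than in the Ca1a control, taken against 3 reads in the Ca1a control.

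TAGLN (chromosome 11, 117199321 to 117204782, plus strand) encodes transgelin (SM22), a small actin-binding protein of the calponin family and a marker of smooth muscle differentiation. It stood at 7.35 and 10.4 FPKM in the knockdown and control libraries of MDA-MB-231, and at 0.524 and 0.458 FPKM in the overexpression and control libraries of Ca1a. Between the controls this is 22.8-fold higher in MDA-MB-231 by FPKM, and 20.2-fold (13.2 to 32.6) by share of reads. CNN1, the calponin gene of differentiated smooth muscle, lies on the plus strand of chromosome 19 (11538717 to 11550323). It had only 18 and 14 reads (0.218 and 0.226 FPKM) in the knockdown and control libraries of MDA-MB-231 and 0 reads in both Ca1a libraries. Its share of reads was at least 4.81-fold higher in the MDA-MB-231 control, again against 3 reads.

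The remaining calponins were abundant in both lines. CNN2 (chromosome 19, 1026581 to 1039068, plus strand), a calponin gene expressed in many cell types besides muscle, stood at 96.6 and 90.9 FPKM in the knockdown and control libraries of MDA-MB-231 and at 87.8 and 81.9 FPKM in the overexpression and control libraries of Ca1a. The controls differed by 1.11-fold. CNN3 (chromosome 1, 94896949 to 94927278, minus strand), the acidic calponin gene, stood at 93.4 and 109 FPKM in the knockdown and control libraries of MDA-MB-231 and at 48.3 and 41.5 FPKM in the overexpression and control libraries of Ca1a. It was 2.63-fold higher in the MDA-MB-231 control than in the Ca1a control.

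ACTA2, the smooth muscle alpha-actin gene (chromosome 10, 88935074 to 88991339, minus strand), went the other way. It stood at 1.28 and 1.24 FPKM in the knockdown and control libraries of MDA-MB-231 and at 15.6 and 12.7 FPKM in the overexpression and control libraries of Ca1a. The MDA-MB-231 control had a ratio of 0.0973 to the Ca1a control by FPKM, and of 0.0977 (0.0751 to 0.125) by share of reads. FAS, a death receptor gene whose exons overlap those of ACTA2 on the opposite strand over 380 bases, was also lower in the MDA-MB-231 control, at 230 normalized counts against 1609 in the Ca1a control. The strand setting of the counting was not given in the sources used here, and the part of FAS reads in the ACTA2 values was not tested.

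Of the tropomyosin members, TPM2 was lower and TPM1 higher in MDA-MB-231. TPM2 (chromosome 9, 35681992 to 35690121, minus strand) encodes beta-tropomyosin and stood at 9.99 and 12.4 FPKM in the knockdown and control libraries of MDA-MB-231 and at 58.1 and 50.2 FPKM in the overexpression and control libraries of Ca1a. TPM1 (chromosome 15, 63042632 to 63071915, plus strand), the alpha-tropomyosin gene, stood at 11.4 and 12.3 FPKM in the knockdown and control libraries of MDA-MB-231 and at 5.40 and 6.09 FPKM in the overexpression and control libraries of Ca1a. The FPKM of TPM2 over that of TPM1 was thus 0.879 and 1.01 in the knockdown and control libraries of MDA-MB-231, and 10.8 and 8.25 in the overexpression and control libraries of Ca1a. Between the MDA-MB-231 and Ca1a controls the FPKM ratio was 0.247 for TPM2 and 2.02 for TPM1.

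CALD1 (chromosome 7, 134744252 to 134970728, plus strand), whose product caldesmon binds actin, myosin, tropomyosin and calmodulin, stood at 21.2 and 22.4 FPKM in the knockdown and control libraries of MDA-MB-231 and at 22.9 and 23.6 FPKM in the overexpression and control libraries of Ca1a. SRF (chromosome 6, 43171299 to 43181507, plus strand) stood at 21.9 and 23.5 FPKM in the knockdown and control libraries of MDA-MB-231 and at 11.3 and 11.5 FPKM in the overexpression and control libraries of Ca1a. The SRF transcript was 2.04-fold higher in the MDA-MB-231 control than in the Ca1a control.

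**Figure D1:**
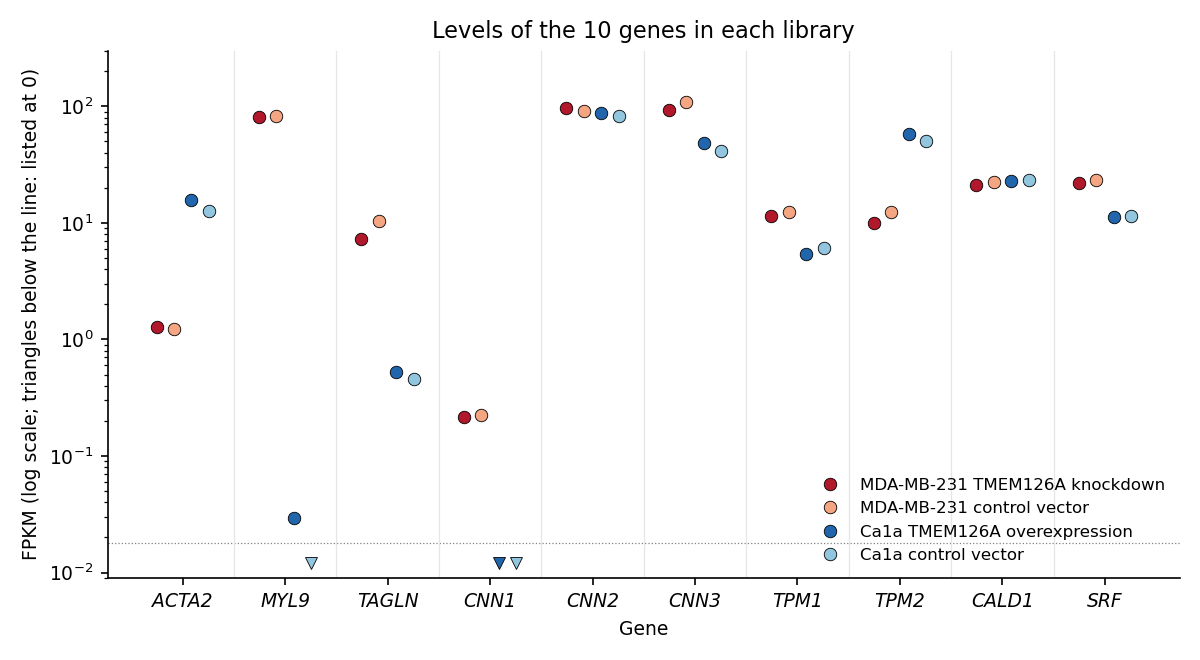
FPKM (log scale) of each gene in the knockdown and control libraries of MDA-MB-231 and the overexpression and control libraries of Ca1a, with triangles for genes listed at 0. MYL9 stood at 80.8 and 83.0 FPKM in MDA-MB-231 and at 0.0292 and 0 FPKM in Ca1a, while ACTA2 and TPM2 were higher in Ca1a and CNN2 and CALD1 lay close together in all 4 libraries.

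Of the 9 members with a mean of at least 1 FPKM over the 2 controls, 5 were at least 2-fold higher in the MDA-MB-231 control (TAGLN, MYL9, CNN3, TPM1 and SRF), against 25.1% of the 11363 genes with such a mean. ACTA2 and TPM2 were at least 2-fold lower in it, against 13.3% of those genes. In all 7 of the 9 differed by 2-fold, against 38.4%. CNN1 was the member under this mean. TAGLN and MYL9 passed it through the MDA-MB-231 control alone, being under 1 FPKM in the Ca1a control, so the filter in part fixes their place in this count, and nothing is read from the count. TPM1 and SRF stood just past the threshold, and the ratio of FPKM + 1 left 3 members higher (TAGLN, MYL9 and CNN3). Single libraries of cultures in different media were compared, so the line, the medium and the culture cannot be told apart.

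**Figure D2:**
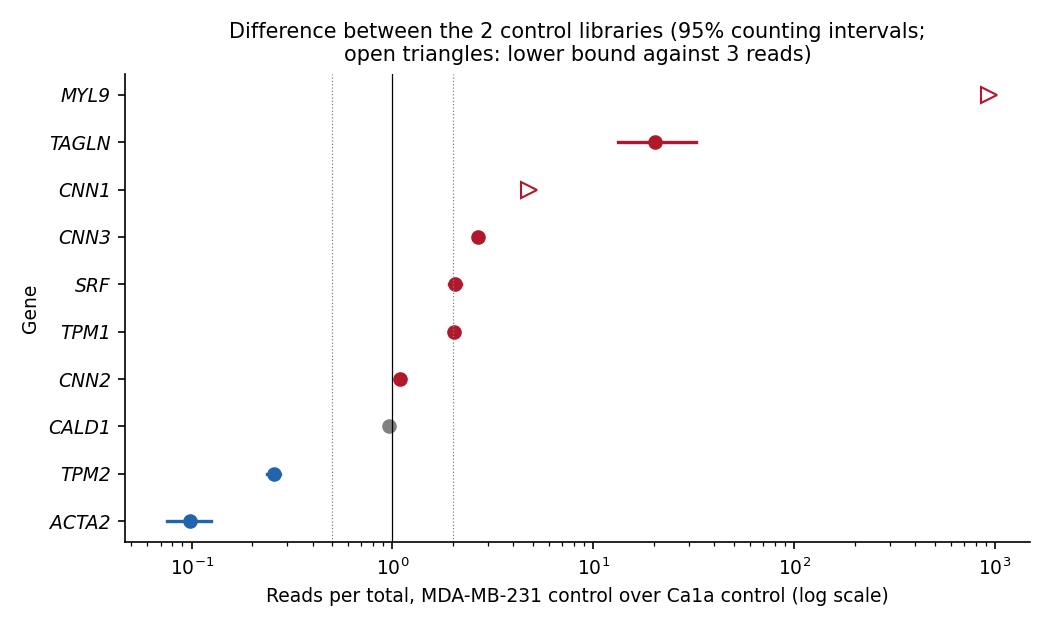
Share of reads of each gene in the MDA-MB-231 control over that in the Ca1a control (log scale), with 95% counting intervals and dotted lines at 2-fold. Open triangles mark ratios taken against 3 reads for MYL9 and CNN1, which had 0 reads in the Ca1a control. With the 0 reads counted, the lower 95% counting limits of the ratios were 755 and 3.42. The ratios ran from 0.0977 for ACTA2 to 929 for MYL9, the second against 3 reads.

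Within the MDA-MB-231 control the order of FPKM was CNN3, CNN2, MYL9, SRF, CALD1, TPM2, TPM1, TAGLN, ACTA2 and CNN1. The counting intervals of SRF (22.5 to 24.4 FPKM) and CALD1 (21.8 to 23.0 FPKM) overlapped, as did those of TPM2 (11.6 to 13.2 FPKM) and TPM1 (11.9 to 12.8 FPKM). In the knockdown library CNN2 stood at 96.6 FPKM (94.1 to 99.1) and CNN3 at 93.4 FPKM (91.1 to 95.7), so the 2 calponins overlapped there. In the control they did not, at 90.9 FPKM (88.5 to 93.4) for CNN2 and 109 FPKM (107 to 112) for CNN3. Within the Ca1a control the order was CNN2, TPM2, CNN3, CALD1, ACTA2, SRF, TPM1 and TAGLN, with MYL9 and CNN1 listed at 0, and only ACTA2 (11.8 to 13.7 FPKM) and SRF (10.9 to 12.2 FPKM) overlapped among neighbours.

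The order depends on the length by which reads are divided. In the MDA-MB-231 control the reads and FPKM of TPM1 implied a length of 11776 bases, and those of CALD1 11917 bases. The longest protein-coding transcripts in GENCODE release 29 have 3957 bases for TPM1 and 4281 bases for CALD1. These genes have 34 and 24 annotated transcripts, and their merged exons add up to 12876 and 9843 bases. With reads per kilobase of the longest coding transcript, CALD1 moved to rank 3 from rank 5 in the MDA-MB-231 control, TPM1 to rank 5 from rank 7, MYL9 to rank 4 from rank 3 and SRF to rank 7 from rank 4. By the same scale TPM2 took rank 1 in the Ca1a control. In the knockdown library of MDA-MB-231 that scale put CNN3 at rank 1 and CNN2 at rank 2, as did the merged exon length. The overlap of these 2 calponins there thus rests on the length behind FPKM. Ratios of counts of 1 gene do not need this length.

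The first comparison asked how lowering TMEM126A bore on these genes in MDA-MB-231. TAGLN had the lowest ratio, 0.723, of the 9 members whose counts averaged 20 or more, and TPM2, CNN3, TPM1, SRF and CALD1 were lower at ratios of 0.836 to 0.954. CNN2 alone was higher beyond counting error, and ACTA2 and MYL9 lay within it. Normalized counts are reads over a size factor for each library, and the 95% intervals hold counting error alone.

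TAGLN had 314 normalized counts with knockdown (280 to 351, exact Poisson), against 435 with the control vector (395 to 478), and was thus 1.38-fold lower (1.19 to 1.61). The 2 intervals do not overlap. The authors' deposited table gives TAGLN an adjusted p of 0.909 by DESeq, and an adjusted p of 1 for the other members. PCSK7, a proprotein convertase gene whose exons overlap 11.4% of the exon bases of TAGLN on the opposite strand, was also lower, at 933 and 1051 normalized counts in the knockdown and control libraries. Its part in the TAGLN ratio was not tested. The summed level of 5 smooth muscle and pericyte markers was 12.7 FPKM with knockdown and 10.8 FPKM with the control vector, most of it from the proteoglycan gene CSPG4.

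TPM2 had 827 normalized counts with knockdown, against 989 with the control vector, for a ratio of 0.836 (0.761 to 0.918). CNN3 had 6431 with knockdown, against 7376 with the control vector, for a ratio of 0.872 (0.843 to 0.902). TPM1 was lower too, at 2772 with knockdown, against 3018 with the control vector, for a ratio of 0.919 (0.872 to 0.967). The tropomyosin genes that are not members were not lower beyond counting error. TPM3 had a ratio of 1.05 (1.02 to 1.08) and TPM4 of 0.990 (0.973 to 1.01).

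SRF had 2271 normalized counts with knockdown, against 2411 with the control vector, for a ratio of 0.942 (0.889 to 0.998). CALD1 had 5288 with knockdown, against 5543 with the control vector, for a ratio of 0.954 (0.919 to 0.991). These intervals end close to 1, so both genes stood only just beyond counting error.

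CNN2 had 5763 normalized counts with knockdown, against 5307 with the control vector, for a ratio of 1.09 (1.05 to 1.13). It therefore moved against its paralog CNN3, and the FPKM of CNN2 over that of CNN3 was 1.03 in the knockdown library and 0.834 in the control. MYL9, at 2704 counts with knockdown and 2722 with the control vector, had a ratio of 0.994 (0.942 to 1.05). ACTA2 had 73.5 with knockdown, against 68.4 with the control vector, for a ratio of 1.07 (0.763 to 1.52), and CNN1, on 18 and 14 reads, a ratio of 1.27 (0.597 to 2.76). Differences inside these intervals were not detectable at this depth, which for ACTA2 and CNN1 leaves a wide range.

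Of the 9 members averaging 20 normalized counts or more, 6 were lower beyond counting error, against 11.3% of 13292 such genes, and 1 was higher, against 16.8%. Intervals narrow as counts rise, and most members are abundant. Among genes with a mean of at least 500, 5 of 7 members were lower, against 14.6% of 7877 genes, and 1 was higher, against 21.8%. No member differed by 2-fold, which 0.459% of the genes did in either direction. The median log2 ratio was -0.086 over the 9 members and 0.013 over all 13292 genes, on log2(normalized counts + 1).

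The second comparison asked how raising TMEM126A bore on these genes in Ca1a. TPM2, ACTA2 and CNN3 were 1.18- to 1.20-fold higher in the overexpression library, CALD1 and CNN2 were higher by smaller amounts, and TPM1, SRF and TAGLN lay within counting error. MYL9 and CNN1 were not measurable in this line.

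TPM2 had 4739 counts with overexpression (4605 to 4876), against 3959 with the control vector (3837 to 4084), and was thus 1.20-fold higher (1.147 to 1.249). ACTA2 had 851 with overexpression, against 717 with the control vector, and was 1.19-fold higher (1.07 to 1.31). Both are the members that were at least 2-fold higher in the Ca1a control than in the MDA-MB-231 control. FAS, which overlaps ACTA2, had 1815 counts with overexpression, against 1609 with the control vector, and was 1.13-fold higher (1.05 to 1.21), and its part in the ACTA2 ratio was not tested. ACTA2 and TPM2 are also genes of myoepithelial cells, and the summed level of 5 myoepithelial markers was 445 FPKM with overexpression and 341 FPKM with the control vector. Nearly all of it was the basal keratin gene KRT5, at 440 and 335 FPKM in those libraries, which is also an epithelial marker here. TP63 was lower with overexpression, at 4.61 and 5.56 FPKM, as was OXTR, at 0.0930 and 0.136 FPKM. KRT14, at 0.202 and 0.0451 FPKM, and MME, at 0.227 and 0.142 FPKM, were higher but close to 0. The markers thus did not move together, and any link with the ratios of ACTA2 and TPM2 was not tested.

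CNN3 had 3354 counts with overexpression, against 2841 with the control vector, and was 1.18-fold higher (1.12 to 1.24). CALD1 had 6272 with overexpression, against 5884 with the control vector, and was 1.07-fold higher (1.03 to 1.10), but its FPKM was 22.9 with overexpression and 23.6 with the control vector, a lower value. CNN2 had 5190 with overexpression, against 4959 with the control vector, and was 1.05-fold higher (1.01 to 1.09), a difference that lay within counting error with TMM scaling.

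TPM1 had 1480 counts with overexpression, against 1528 with the control vector, for a ratio of 0.969 (0.901 to 1.04), and with FPKM it was lower beyond counting error. For both CALD1 and TPM1 the length implied by reads and FPKM differed between the Ca1a libraries, at 12841 bases with overexpression and 11720 with the control vector for CALD1, and at 12841 and 11782 bases for TPM1. SRF had 1163 with overexpression, against 1207 with the control vector, for a ratio of 0.964 (0.888 to 1.05). TAGLN had 23 and 22 reads, a ratio of 1.05 (0.557 to 1.97), so even a 1.38-fold difference such as that in MDA-MB-231 was not detectable at this depth. The authors' deposited table gives an adjusted p of 1 by DESeq for each member with a value.

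Of 8 members with a mean of at least 20 counts, 5 were higher beyond counting error, against 18.1% of 12111 genes, and 0 were lower, against 16.2%. Among genes with a mean of at least 500, 5 of 7 members were higher, against 23.6% of 7099 genes, and 0 were lower, against 20.8%. No member differed by 2-fold, which 0.628% of the 12111 genes did in either direction. The median log2 ratio was 0.079 over the 8 members and 0.0071 over all 12111 genes.

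**Figure D3:**
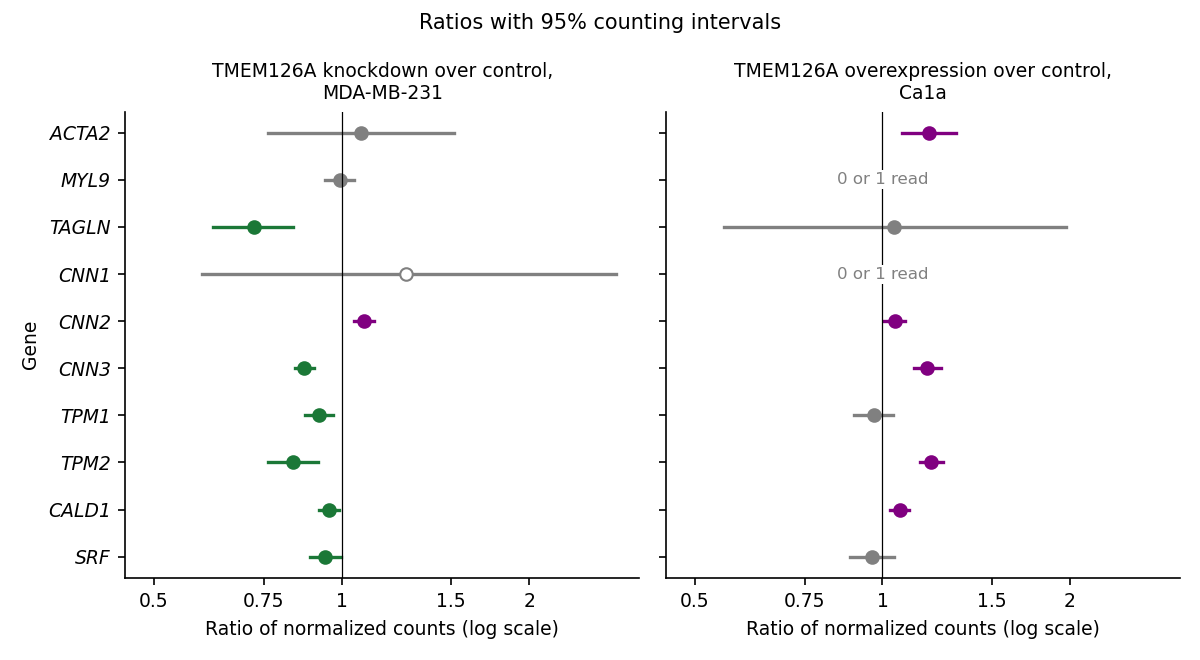
Ratio of normalized counts (log scale) of the knockdown over the control library of MDA-MB-231 and of the overexpression over the control library of Ca1a, with 95% counting intervals. Green points are lower and purple points higher beyond counting error, grey points lie within it, and the open point has a mean under 20. TPM2 had ratios of 0.836 and 1.20, and CNN3 of 0.872 and 1.18.

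The knockdown and overexpression comparisons share no library. CNN3, TPM2 and CALD1 were lower with knockdown and higher with overexpression, 3 of the 8 members with a mean of at least 20 in both. This pattern held for 2.14% of 11349 genes, and for 3.15% of the 6308 that averaged 500 or more in both, of which 6 were members. CNN2 was higher in both comparisons, as were 4.32% of the 11349 genes. No member was higher with knockdown and lower with overexpression, which 3.37% of the genes were, or lower in both, which 2.79% were. For CALD1 the pattern is lost with FPKM. The difference between the comparisons was not tested, and the comparisons differ in the line as well as in the direction of TMEM126A.

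Reads of other loci could enter the counts of some members more than of others. No stretch of 50 bases in the annotated transcripts of MYL9, CNN3, TPM2, CALD1 or SRF occurs in transcripts of another gene. The share of such stretches that does was 26.0% for ACTA2, 20.0% for TPM1, 9.63% for TAGLN, 8.51% for CNN2 and 0.450% for CNN1. A gene overlapping on the opposite strand led the shared stretches for ACTA2 (ACTA2-AS1), TPM1 (TPM1-AS), TAGLN (PCSK7) and CNN2 (AC011558.1). The part of such reads in the ratios was not tested. The counting of reads that match several genes is likewise not given.

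Other genes of actin filaments and myosin differed in both directions. Their counts below stand against the shares of all genes beyond counting error, which were 16.8% higher and 11.3% lower with knockdown and 18.1% higher and 16.2% lower with overexpression. The coactivators of SRF stayed within counting error in both lines. MKL1 had a ratio of 0.932 (0.829 to 1.05) with knockdown and 0.939 (0.838 to 1.05) with overexpression, MKL2 of 1.04 (0.942 to 1.15) and 1.08 (0.995 to 1.17), and MYOCD, the coactivator of smooth and heart muscle, was listed at 0 in each library. Among 7 measured cofactors and partners of SRF, 1 was higher and 2 lower with knockdown, against 16.8% and 11.3% of all genes. With overexpression 0 were higher and 1 lower, against 18.1% and 16.2%. The ETS factor gene ELK4 had a ratio of 0.823 (0.770 to 0.879) with knockdown. ELK3, which encodes another ETS partner of SRF, had a ratio of 0.903 (0.865 to 0.942) with knockdown and of 0.890 (0.845 to 0.937) with overexpression.

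The non-muscle actin genes differed little. ACTB stood at 1951 and 1961 FPKM in the knockdown and control libraries of MDA-MB-231 and at 1916 and 1953 FPKM in the overexpression and control libraries of Ca1a. Its ratios of counts were 1.04 (1.03 to 1.05) with knockdown, where its FPKM was lower, and 0.982 (0.974 to 0.990) with overexpression. Those of ACTG1 were 1.02 (1.01 to 1.03) in each comparison, but its FPKM was 1304 with knockdown and 1306 with its control vector, a slightly lower value. Of the closest relatives of the members, TAGLN2, a transgelin gene of non-muscle cells, had a ratio of 1.13 (1.10 to 1.17) with knockdown, against 0.723 for TAGLN. Of 4 measured relatives, 2 were higher and 0 lower with knockdown, against 16.8% and 11.3% of all genes. With overexpression 1 of 3 was higher and 0 lower, against 18.1% and 16.2%. The relative TPM4 stood at 154 FPKM in the MDA-MB-231 control and 160 FPKM in the Ca1a control. In Ca1a, where MYL9 was absent from the counts of the control, the non-muscle light chain genes MYL12A and MYL12B stood at 156 and 201 FPKM in the overexpression library and at 141 and 197 FPKM in the control. MYL12A was 1.14-fold higher (1.10 to 1.18) with overexpression, the largest change among 6 measured myosin chain genes, of which 3 were higher, against 18.1% of all genes, and 0 lower, against 16.2%. With knockdown 2 of 5 were higher, against 16.8% of all genes, and 1 lower, against 11.3%, led by MYH10 at 0.890 (0.826 to 0.958), while the essential light chain gene MYL6 was higher in both comparisons, at 1.08 (1.05 to 1.10) and 1.08 (1.04 to 1.13).

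Myosin phosphorylation genes had 2 of 10 measured members higher and 2 lower with knockdown, against 16.8% and 11.3% of all genes. With overexpression 1 of 9 was higher and 4 lower, against 18.1% and 16.2%. The kinase gene ROCK2 had a ratio of 0.901 (0.855 to 0.949) with knockdown, and RHOB, a small GTPase gene, of 0.721 (0.665 to 0.781) with overexpression. RHOA, which encodes the GTPase that activates the ROCK kinases, had ratios of 1.02 (0.991 to 1.04) and 1.04 (1.01 to 1.07). Among 9 measured actin crosslinkers 2 were higher and 4 lower with knockdown, against 16.8% and 11.3% of all genes. Among 8 with overexpression 1 was higher and 3 lower, against 18.1% and 16.2%. LCP1, the L-plastin gene, had a ratio of 0.646 (0.595 to 0.701) with knockdown. FSCN1, which encodes the bundling protein fascin, had a ratio of 1.34 (1.24 to 1.46) with knockdown and of 0.801 (0.780 to 0.822) with overexpression.

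Of 15 genes of focal adhesions and stress fibres, 3 were higher and 4 lower with knockdown, against 16.8% and 11.3% of all genes, or 21.8% and 14.6% of those averaging 500 or more. With overexpression 2 were higher and 6 lower, against 18.1% and 16.2% of all genes, or 23.6% and 20.8% of those averaging 500 or more. SYNPO, the synaptopodin gene, had a ratio of 1.51 (1.37 to 1.66) with knockdown, and PDLIM7, an actin-linked LIM protein gene, of 0.687 (0.652 to 0.723) with overexpression. The LIM protein gene CSRP1 had ratios of 1.12 (1.08 to 1.17) and 0.977 (0.942 to 1.01). Of 10 smooth muscle differentiation genes only 3 were measured in MDA-MB-231 and 1 in Ca1a. That gene, the smoothelin gene SMTN, was lower in both comparisons, at 0.847 (0.797 to 0.901) and 0.808 (0.775 to 0.843). With knockdown 1 of the 3 was higher and 1 lower, against 16.8% and 11.3% of all genes. SYNM was the higher gene, at 1.17 (1.08 to 1.26), and SYNPO2 lay within counting error, at 1.13 (0.655 to 1.97). The medians of these 8 lists lay between -0.067 and 0.18 on the log2 scale with knockdown and between -0.31 and 0.041 with overexpression.

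**Figure D4:**
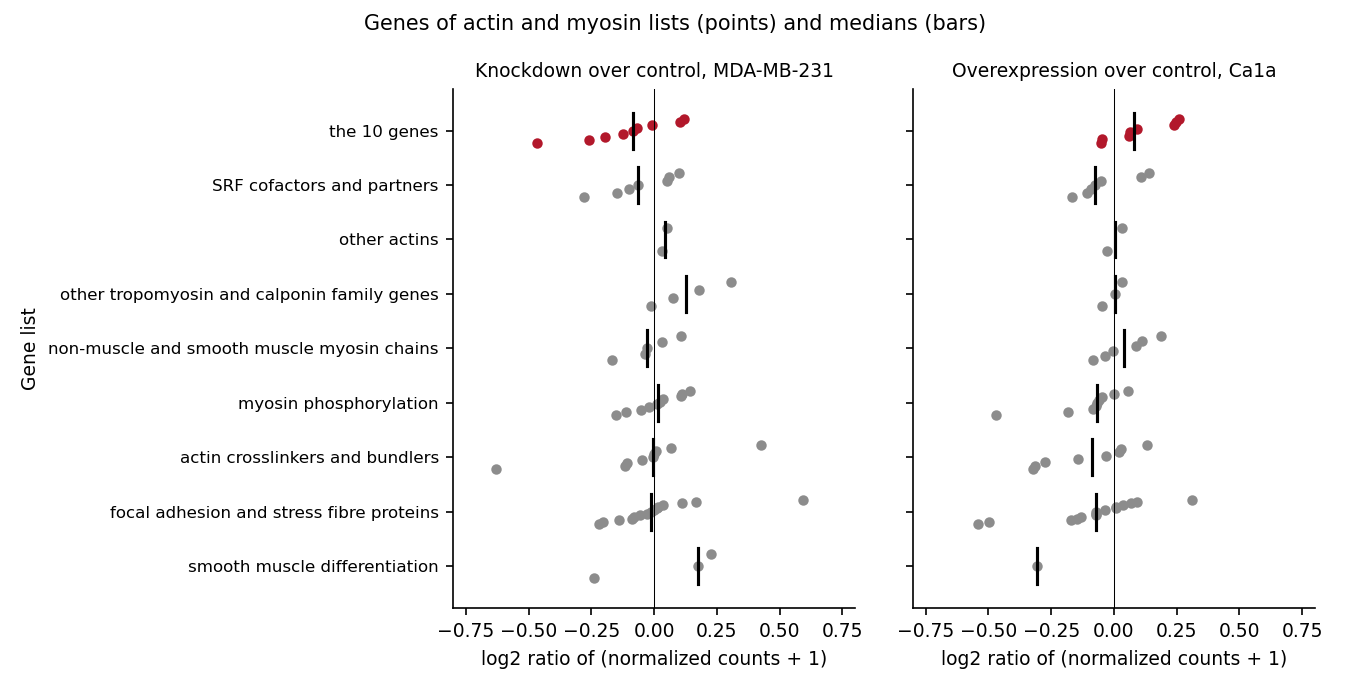
Log2 ratios of (normalized counts + 1) for genes with a mean of at least 20, knockdown over control in MDA-MB-231 and overexpression over control in Ca1a, with red points for the 10 genes described here (9 and 8 of them pass) and grey points for the other lists. Bars are medians, which were -0.086 and 0.079 for the red points. Medians of the other lists ran from -0.067 to 0.18 with knockdown and from -0.31 (1 gene) to 0.041 with overexpression.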

How the data were processed

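RNA-seq tables of 4 libraries were used, 1 per group, as grouped by the labels. The submitters' processing notes name HISAT2, Cufflinks, HTSeq, DESeq, GRCh38.p5 and hg38, without roles, order or a strand setting. The deposited DESeq base means of Ca1a are whole numbers and were used as read counts. For MDA-MB-231 the deposited signal is the count divided by the library's size factor, and 100% of values were whole multiples of 1 step to within 1e-06, and the multiples served as reads. The deposited FPKM have a denominator that is not given. The authors' fold ratios, log2 fold changes and p-values were deposited too, and only adjusted p-values were copied.

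Intervals are at 95%, by the exact conditional binomial (Clopper-Pearson) for ratios and the exact Poisson for levels. Sequenced fragments are not independent molecules, so intervals and the limit of 3 reads at a count of 0 cover counting error only. No test between conditions was possible. Counts of calls used genes averaging 20 normalized counts or more. The members and lists were chosen with earlier results of these data known. The genes named are the members, TMEM126A, MKL1, MKL2, cell type markers and, per list, the gene of highest FPKM and that of the largest ratio with a mean of at least 100 in each comparison, and 1 gene that the rule gives is not reported here. MYOCD, MYL12B, ACTN4, TPM3, TPM4, SYNM and SYNPO2, and the overlapping FAS, PCSK7, ACTA2-AS1, TPM1-AS and AC011558.1, were chosen after their values were seen. The background for a mean of at least 500 and the length scales were added after seeing the data. Gene positions are those of GENCODE release 29 (GRCh38), and promoters are from RefSeq on GRCh38.p14. Alternatives were FPKM, total reads, TMM or median scaling, means of at least 5 or 100 or no filter, pseudocounts of 0.5 and 5, the mean, and FPKM thresholds. Software was python 3.11.15, numpy 2.4.6, pandas 2.3.3, scipy 1.17.1, matplotlib 3.10.9, and edgeR 4.0.16 in R 4.3.3, used to compute the TMM factors.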

Additional observations from a re-analysis of the deposited data

How the results depend on the processing

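Counts of members beyond counting error and their medians were recomputed with FPKM, with scaling by total reads, TMM or the median ratio, and with other filters, and the medians also with other pseudocounts and as a mean. With FPKM 1 member was lower in the overexpression comparison, against 0 with counts. TPM1 was that member, at a log2 ratio of -0.17, and CALD1 turned to -0.043, against 0.092 with counts, while CNN2 lay within counting error with TMM at 0.055. The cause was not tested. No scaling moved the median log2 ratio of all genes by over 0.1. Between the controls, 2 members were higher at 4-fold and 3 with the ratio of FPKM + 1, against 5 at 2-fold. Of 60 recomputed counts and medians 57 stayed close to the values given (a count within 1.5-fold, a median within its counting interval), and 3 did not. No paired analysis was possible because each group held 1 library, and for the same reason no replicate could be left out. Depth limits CNN1 in MDA-MB-231 and TAGLN, MYL9 and CNN1 in Ca1a.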

Other observations

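Between the 2 control libraries other genes of the contractile lists stood further apart than most members. These were chosen after their values were seen, and no test between single libraries was possible. MYLK, which encodes the kinase of the regulatory light chain, stood at 12.8 FPKM in the MDA-MB-231 control and 0.0442 FPKM in the Ca1a control, on 3287 and 12 reads. The actin crosslinker gene FLNA stood at 353 FPKM in the MDA-MB-231 control and 7.11 FPKM in the Ca1a control, and its relative FLNC at 51.5 and 0.00780 FPKM, the second on 2 reads. The fascin gene FSCN1 went the other way, at 21.0 FPKM in the MDA-MB-231 control and 267 FPKM in the Ca1a control. Of the 9 crosslinkers with a mean of at least 1 FPKM, 3 were at least 2-fold higher in the MDA-MB-231 control and 2 lower, against 25.1% and 13.3% of all genes with such a mean. ACTB did not follow this split, at 1961 FPKM in the MDA-MB-231 control and 1953 FPKM in the Ca1a control.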
